A study of Mus musculus with 15 samples.

Results

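The 10 genes described here encode heat shock proteins and chaperones of the endoplasmic reticulum (ER). In all, 7 of them act in the cytosol and nucleus (Hspa8, Hspa1a, Hspa1b, Hsph1, Dnajb1, Hsp90aa1 and Hsp90ab1), 2 in the ER (Hspa5 and Hsp90b1) and 1 in mitochondria (Hspd1). They were taken by gene symbol, using the row with most reads for a symbol, and were chosen with earlier results of these data known. They are 10 of the 19345 symbols on the 19464 rows of the table. The libraries were made from liver of 4 groups: 2-week-old Stab1-/- mice (n = 4), 2-week-old wildtype mice (n = 4), Stab1-/- fetuses at E17.5, late in gestation (n = 3) and wildtype fetuses at E17.5 (n = 4). Stab1 encodes Clever-1, also called stabilin-1, a scavenger receptor of sinusoidal endothelium and macrophages, and Stab1-/- mice lack it in all cells. Both genotypes had the mixed background C57BL/6N;129SvJ, and no treatment is named for any group. The comparisons ask how the livers of the 2 genotypes differ at each age. No source used here gives litters, sex or preparation batches, so the p-values below measure the spread between these samples only.

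Chaperones bind unfolded or partly folded proteins and use ATP to help them fold, assemble or be cleared. Under heat or other protein damage, the transcription factor HSF1 raises the inducible cytosolic chaperones, whereas unfolded protein in the ER raises the ER chaperones through the sensors of the unfolded protein response. The liver secretes most plasma proteins, so its hepatocytes carry a large load of protein folding in the ER.

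Libraries held 9659 to 10964 times 1000 reads on genes. The number of Stab1 reads was 68 to 119 in Stab1-/- and 579 to 941 in wildtype libraries at 2 weeks, and 301 to 443 against 1244 to 1868 at E17.5, so each library went with its label. The 10 hepatocyte markers examined summed to between 48266 RPKM (a wildtype E17.5 library) and 93713 RPKM (a wildtype 2-week library), and none was at 0 throughout a group. The summed level of 10 erythroid markers was 11295 to 15882 RPKM at E17.5 and 193 to 442 RPKM at 2 weeks, and that of 8 proliferation markers was 536 to 812 RPKM against 27.8 to 59.8 RPKM. RPKM, the unit of all levels below, is the number of reads on a gene divided by its length and by the library's total of reads on genes. Wildtype 2-week replicate 3 was low in ER chaperones, as described below with the values found without it. Wildtype E17.5 replicate 2 stood apart in pancreas markers (a sum of 2025 RPKM, the next library of its group at 199 RPKM), and its removal changed no call of a member. In whole liver, fewer cells of a type and less RNA per cell cannot be told apart.

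Together the 10 genes took 0.413% to 0.446% of the reads in 2-week-old Stab1-/- livers and 0.361% to 0.467% in 2-week-old wildtype livers. At E17.5 they took 0.559% to 0.600% in Stab1-/- and 0.545% to 0.582% in wildtype livers, so all E17.5 libraries lay above all 2-week libraries. Hspa8, the constitutive cytosolic Hsp70, was the highest with group means between 565 and 653 RPKM. The ER chaperones Hspa5 and Hsp90b1, the constitutive cytosolic Hsp90 encoded by Hsp90ab1, and the mitochondrial chaperonin Hspd1 had group means between 184 and 442 RPKM. Hsp90aa1, which encodes the more inducible cytosolic Hsp90, ranged from 65.2 to 213 RPKM in group means. Dnajb1 and Hsph1, co-chaperones of Hsp70, lay between 9.72 and 27.5 RPKM. Hspa1a and Hspa1b, the heat-inducible Hsp70 genes, had very few counted reads, with no group mean above 0.664 RPKM.

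**Figure D1:**
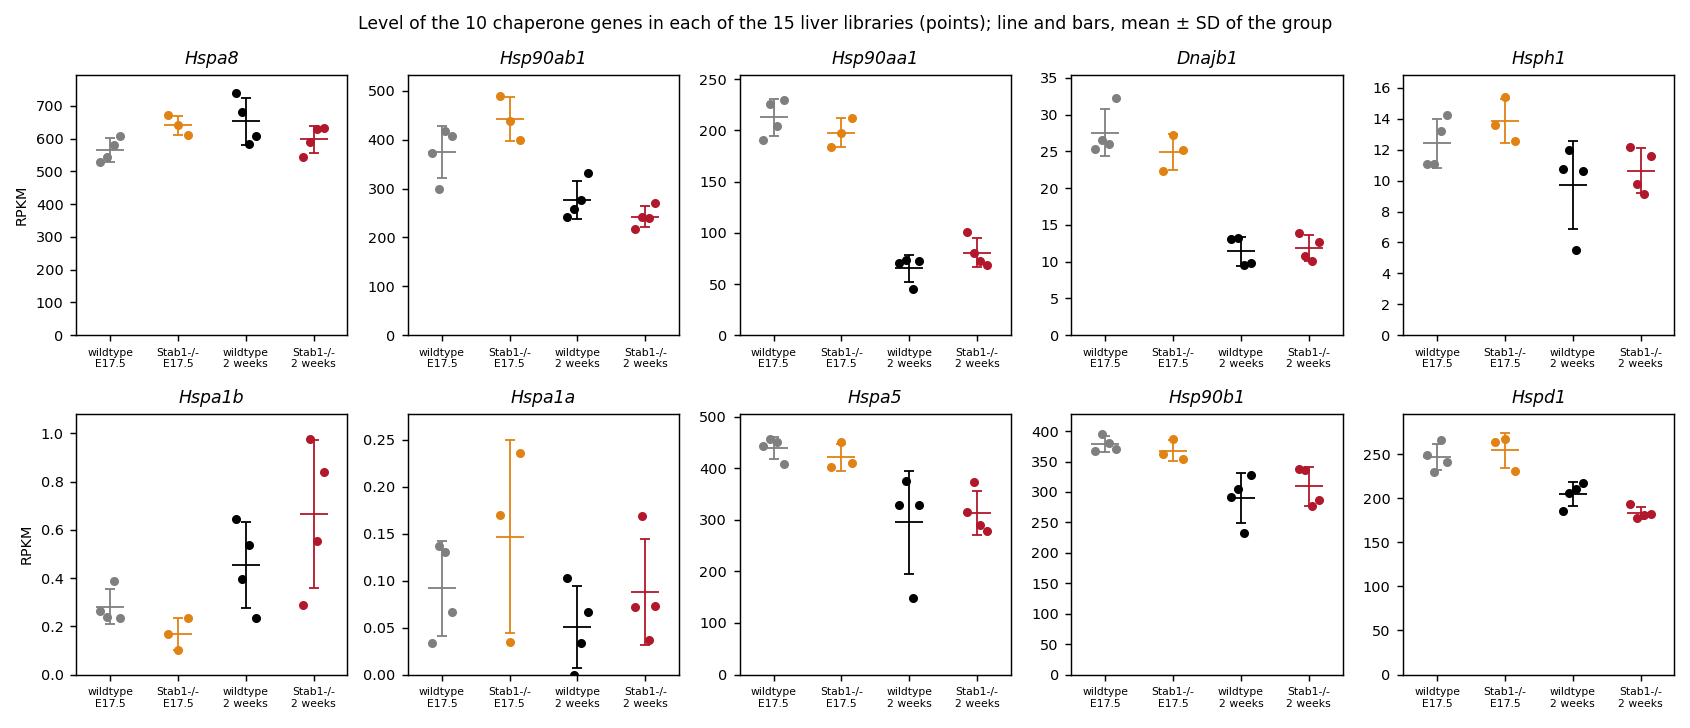
RPKM (linear axis from 0, its own scale in each panel) of the 10 genes by group; each point is 1 library, and the line and bars are the mean ± SD of the group. Hsp90aa1 and Dnajb1 were lower in all 2-week than in all E17.5 libraries, and 1 wildtype 2-week library (replicate 3) lay low for Hspa5 (148 RPKM), Hsph1 (5.52 RPKM) and Hsp90aa1 (45.2 RPKM).

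None of the members tested passed edgeR's test between Stab1-/- and wildtype livers at either age. At 2 weeks, 0 of the 9 members tested were called (edgeR's quasi-likelihood test, adjusted p under 0.05), where 2.67% of the 12716 genes tested were called, 119 higher and 221 lower in Stab1-/- livers. With scaling by library totals in place of TMM, the default of edgeR, those numbers were 137 and 118. At E17.5, 0 of 8 members were called, where 0.35% of 13414 genes were, 26 higher and 21 lower (22 and 32 with library totals). At an unadjusted p under 0.05 there was 1 member at 2 weeks, where 23.4% of all genes were, and there were 2 at E17.5, where 12.9% were. DESeq2 called 0 members and 855 of 13328 genes at 2 weeks, and 1 member and 228 of 15324 genes at E17.5. The median log2 difference of the members tested was 0.0042 at 2 weeks and 0.063 at E17.5, beside -0.013 and 0.0013 over all genes tested.

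Hspa8 had the smallest adjusted p of the members at E17.5, and Hspd1 at 2 weeks. In 2-week-old livers the level of Hspa8 was 543, 590, 629 and 631 RPKM in Stab1-/- and 740, 680, 582 and 609 RPKM in wildtype mice, so the genotypes overlapped. At E17.5 it was 670, 640 and 611 RPKM in Stab1-/- and 529, 544, 582 and 607 RPKM in wildtype fetuses, so the genotypes did not overlap and Stab1-/- was higher. Hspa8 was the 1 member of 8 without overlap at E17.5, where 12.2% of genes tested had none, and 0 of 9 members lacked overlap at 2 weeks, where 14.9% of genes did. The log2 difference of Hspa8 was 0.24 ± 0.089 (SE) at E17.5 (adjusted p = 0.312, edgeR) and -0.21 ± 0.11 at 2 weeks (adjusted p = 0.276). DESeq2 gave the same size at E17.5, with an adjusted p of 0.0497. About 38.6% of the 50-base windows of Hspa8 transcripts also occur in transcripts of other genes, most of them in Gm15459, so reads could be shared or lost there.

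Hsp90ab1 moved like Hspa8, below the threshold at both ages. It was 218, 241, 239 and 270 RPKM in Stab1-/- and 242, 259, 277 and 331 RPKM in wildtype livers at 2 weeks. At E17.5 its levels were 489, 438 and 400 RPKM against 373, 299, 418 and 408 RPKM. The genotypes overlapped at both ages, and the log2 difference was -0.29 ± 0.14 (SE) at 2 weeks (adjusted p = 0.236) and 0.30 ± 0.13 at E17.5 (adjusted p = 0.371, both edgeR). Hspd1, which folds proteins imported into mitochondria, was 193, 178, 181 and 183 RPKM in Stab1-/- and 185, 206, 210 and 217 RPKM in wildtype livers at 2 weeks. This was a log2 difference of -0.25 ± 0.10 (adjusted p = 0.163), and the groups overlapped through wildtype replicate 1. At E17.5 Hspd1 was 264, 267 and 231 RPKM in Stab1-/- and 249, 230, 266 and 241 RPKM in wildtype livers, a log2 difference of 0.10 ± 0.10 (adjusted p = 0.672).

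The test of whether the genotype difference itself changed between the ages called 0 of 9 members, where 1.82% of 13883 genes were called, 140 upwards and 112 downwards (83 and 210 with library totals). With the difference at 2 weeks subtracted from that at E17.5, the log2 values were 0.42 ± 0.14 (SE) for Hspa8 (adjusted p = 0.104), 0.55 ± 0.20 for Hsp90ab1 (adjusted p = 0.122) and 0.32 ± 0.14 for Hspd1 (adjusted p = 0.180, all edgeR). These 3 members had an unadjusted p under 0.05, as did 23.2% of all genes tested, and DESeq2 called Hspa8 (log2 0.45, adjusted p = 0.00881).

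The other members tested at both ages did not pass between the genotypes either. Hspa5, also called BiP or Grp78, is the Hsp70 of the ER and holds the stress sensors inactive. It was 315, 373, 289 and 279 RPKM in Stab1-/- and 328, 376, 148 and 328 RPKM in wildtype livers at 2 weeks, and 402, 452 and 410 RPKM against 443, 456, 451 and 407 RPKM at E17.5. Its log2 difference was 0.0045 ± 0.22 (SE) at 2 weeks and 0.0013 ± 0.10 at E17.5. Hsp90b1, or Grp94, is the Hsp90 of the ER, and it differed by 0.0042 ± 0.12 and 0.022 ± 0.091. Hsp90aa1 was 101, 80.7, 72.4 and 68.7 RPKM in Stab1-/- and 70.1, 73.0, 45.2 and 72.6 RPKM in wildtype livers at 2 weeks, a log2 difference of 0.21 ± 0.15, and it differed by -0.041 ± 0.096 at E17.5. Dnajb1, the J-domain protein that stimulates the ATPase of Hsp70, differed by -0.031 ± 0.14 and -0.077 ± 0.11. Hsph1, an Hsp110 that exchanges nucleotide on Hsp70, differed by 0.048 ± 0.19 and 0.22 ± 0.12. The adjusted p of these 5 genes lay between 0.422 and 0.997 (edgeR). The genotypes also differed in marker levels: hepatocyte markers summed to 58382 to 73360 RPKM in Stab1-/- and 74171 to 93713 RPKM in wildtype livers at 2 weeks, proliferation markers to 27.8 to 42.1 RPKM against 44.1 to 59.8 RPKM, and granulocyte markers to 188 to 421 RPKM against 30.6 to 146 RPKM. At E17.5 the granulocyte sum was 3603 to 3924 RPKM in Stab1-/- and 5123 to 8305 RPKM in wildtype livers. The part of these markers in the member values was not tested.

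**Figure D2:**
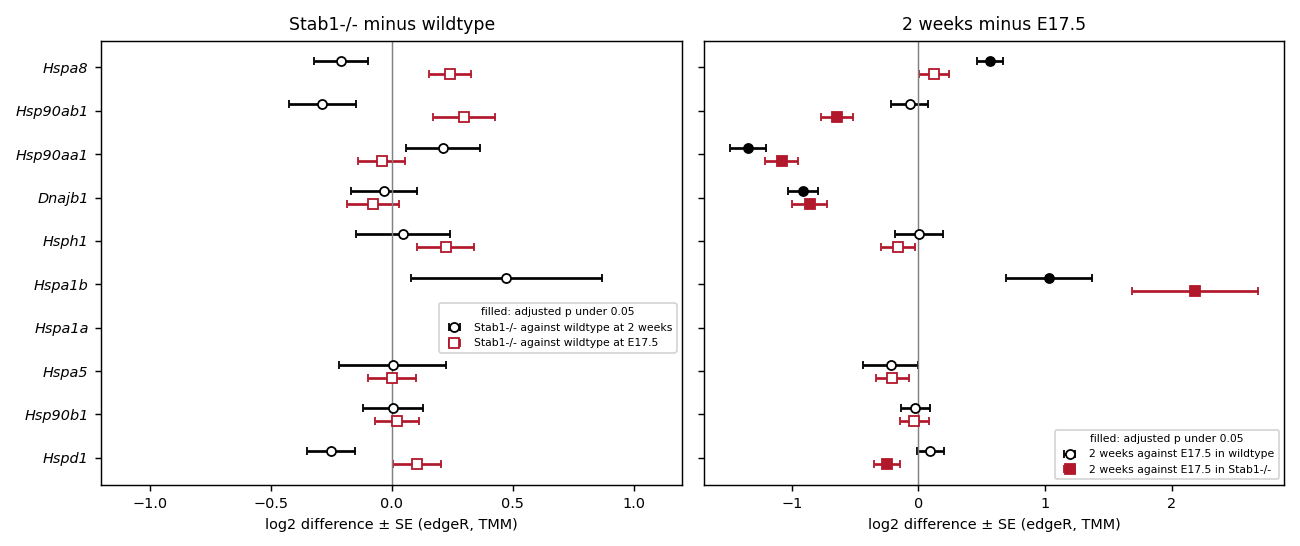
Log2 difference ± SE of each tested member, from edgeR with TMM scaling; circles and squares are the 2 comparisons named in each panel, and filled symbols have an adjusted p under 0.05. No symbol is filled for genotype (left), whereas Hsp90aa1 and Dnajb1 are filled and below 0 for age in both genotypes (right); Hspa1a was not tested.

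Between the ages more members were called. Hsp90aa1 and Dnajb1 were lower at 2 weeks than at E17.5 in both genotypes. Hsp90ab1 and Hspd1 were called lower in Stab1-/- livers, Hspa8 was called higher in wildtype livers, and Hspa1b was called higher in both genotypes. In Stab1-/- livers Hspa1b entered the test through its 2-week libraries alone, as described below, so its call there carries little weight. In wildtype livers 2 of 9 members were called higher at 2 weeks, where 34.9% of 13369 genes were, and 2 were called lower, where 37.0% were. In Stab1-/- livers 1 of 9 members was called higher, where 35.7% of 13432 genes were, and 4 were called lower, where 36.8% were. These counts are at or below the background shares, apart from the 4 of 9 called lower in Stab1-/- livers, which is within 1 gene of it. The median log2 difference of the members was -0.023 in wildtype and -0.21 in Stab1-/- livers, beside -0.015 and -0.014 over all genes tested.

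Hsp90aa1 fell the most. It was 70.1, 73.0, 45.2 and 72.6 RPKM in wildtype livers at 2 weeks and 191, 226, 205 and 229 RPKM at E17.5, and in Stab1-/- livers it was 68.7 to 101 RPKM against 184 to 212 RPKM. No 2-week library reached the lowest E17.5 library. The log2 difference was -1.34 ± 0.14 (SE; adjusted p = 3.35e-06) in wildtype and -1.08 ± 0.13 (adjusted p = 1.91e-05) in Stab1-/- livers (edgeR). Transcripts of Hsp90aa1 share 47.5% of their 50-base windows with other genes, chiefly Gm12346. Dnajb1 was 13.1, 13.2, 9.52 and 9.81 RPKM at 2 weeks and 25.3, 26.5, 26.0 and 32.3 RPKM at E17.5 in wildtype livers, and 10.1 to 13.8 RPKM against 22.4 to 27.3 RPKM in Stab1-/- livers. Its log2 difference was -0.91 ± 0.12 (adjusted p = 2.24e-05) and -0.86 ± 0.14 (adjusted p = 0.000170). Hsp90aa1 and Dnajb1 were called lower in 20 of 20 other fits run in wildtype and in 19 of 19 in Stab1-/- livers.

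For most other members the call depended on the scaling in at least 1 genotype, and the sign changed for Hspd1 and Hsph1 in wildtype livers and for Hspa8 in Stab1-/- livers. TMM assumes that most genes do not differ and set the median of all genes near 0, whereas with library totals that median was -0.38 in wildtype and -0.24 in Stab1-/- livers. With library totals 3111 genes were called higher and 6826 lower at 2 weeks in wildtype livers, against 4667 and 4948 with TMM, and 3767 and 5939 against 4791 and 4947 in Stab1-/- livers. Of the members, 0 were then called higher and 6 lower in wildtype, and 1 higher and 6 lower in Stab1-/- livers. RPKM is on the scale of totals. On it, the 2-week libraries lay below all E17.5 libraries for 5 of 9 tested members in wildtype livers, where 48.0% of genes did, and for 7 of 9 in Stab1-/- livers, where 44.0% did. They lay above for 0 and for 1 of them, where 21.1% and 28.0% of genes did. The 1 was Hspa1b, also the 1 called higher with library totals in Stab1-/- livers. It entered the test there through its 2-week libraries alone, so its separation carries little weight.

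In wildtype livers the log2 difference of Hspa8 between the ages was 0.57 ± 0.10 (SE) with TMM (adjusted p = 0.000291, edgeR) and 0.21 with library totals (adjusted p = 0.0927), and its RPKM overlapped between the ages. In Stab1-/- livers it was 0.13 ± 0.12 with TMM and -0.098 with library totals, neither of which passed. Hspa5 was -0.22 ± 0.22 in wildtype and -0.21 ± 0.13 in Stab1-/- livers with TMM, and neither passed. With library totals it was -0.57 (adjusted p = 0.0339) and -0.42 (adjusted p = 0.00739). Hsp90b1 was -0.023 ± 0.12 and -0.031 ± 0.12 with TMM, and -0.39 (adjusted p = 0.00822) in wildtype livers with library totals. Hsp90ab1 was called lower in Stab1-/- livers (-0.64 ± 0.13, adjusted p = 0.000827) and not in wildtype livers (-0.069 ± 0.15, adjusted p = 0.689), and with library totals it was -0.43 in wildtype livers (adjusted p = 0.0106). The difference between the genotypes in this is the interaction given above, which did not pass. Hspd1 was -0.25 ± 0.10 in Stab1-/- livers (adjusted p = 0.0474), a call lost in 4 of the 7 fits that left out 1 library, and 0.095 ± 0.11 in wildtype livers, where it turned to -0.27 (adjusted p = 0.0204) with library totals. Hsph1 was 0.0040 ± 0.19 and -0.16 ± 0.13 with TMM, and neither passed. In Stab1-/- livers it was called lower in 3 of 12 other settings, library totals among them. The erythroid and proliferation marker sums given above also fell between the ages, and their part in these values was not tested.

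Hspa1a and Hspa1b differ little in sequence, and what was read on them was at the limit of detection. Hspa1a had 0 to 7 reads per library and Hspa1b 3 to 29. Wildtype 2-week replicate 2 had 0 reads on Hspa1a, which allows up to 0.303 CPM, or counts relative to the library's total (a limit of 3 reads, counting error only). By reads on Hspa1b, the 2-week Stab1-/- libraries had 8, 29, 15 and 23, the 2-week wildtype libraries 19, 11, 16 and 7, the E17.5 Stab1-/- libraries 5, 3 and 7 and the E17.5 wildtype libraries 8, 7, 12 and 7. The 2 copies share 58.8% of the 50-base windows of Hspa1a and 62.3% of those of Hspa1b, so reads could be split between them or lost from both. Adding the copies would not bring lost reads back. Reads covered at most 8.79% of the Hspa1a model and 27.6% of the Hspa1b model in any library. The promoters of the pair are shown because they too are nearly alike: over the 250 bases before the start site, 247 were identical, and capitals mark the 3 that differ. Hspa1a lies at chr17:34972157-34972406 and Hspa1b at chr17:34959239-34959488 (both on the minus strand of GRCm38.p6, sequences from RefSeq).
Hspa1a: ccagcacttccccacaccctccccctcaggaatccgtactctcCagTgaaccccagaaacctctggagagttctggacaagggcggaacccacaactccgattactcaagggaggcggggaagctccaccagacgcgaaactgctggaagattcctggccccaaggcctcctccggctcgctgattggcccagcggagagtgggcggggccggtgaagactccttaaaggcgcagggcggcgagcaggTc
Hspa1b: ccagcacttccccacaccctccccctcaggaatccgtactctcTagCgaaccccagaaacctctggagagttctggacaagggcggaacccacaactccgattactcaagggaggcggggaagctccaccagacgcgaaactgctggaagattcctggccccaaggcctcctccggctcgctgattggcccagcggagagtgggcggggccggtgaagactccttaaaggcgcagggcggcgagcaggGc

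Hspa1b alone differed between the ages by 1.03 ± 0.34 (SE, log2; adjusted p = 0.0163) in wildtype and 2.18 ± 0.50 (adjusted p = 0.00219) in Stab1-/- livers (edgeR), with the higher level at 2 weeks. It was 0.453 ± 0.179 RPKM (SD, n = 4) at 2 weeks and 0.281 ± 0.0735 RPKM (n = 4) at E17.5 in wildtype livers, and 0.664 ± 0.306 RPKM (n = 4) against 0.169 ± 0.0665 RPKM (n = 3) in Stab1-/- livers. The wildtype libraries overlapped, and the Stab1-/- libraries did not. Adding the reads of both copies gave 9 to 22 reads at 2 weeks and 9 to 16 at E17.5 in wildtype livers, and 10 to 34 against 4 to 14 in Stab1-/- livers. The sum differed by 0.78 ± 0.32 (adjusted p = 0.0451) and 1.48 ± 0.48 (adjusted p = 0.0163) with edgeR. An exact two-sided permutation test of its CPM gave p = 0.229 and p = 0.114, where the smallest p possible was 0.0286 and 0.0571. With library totals the call of Hspa1b in wildtype livers was lost (0.67, adjusted p = 0.0969), and without wildtype 2-week replicate 1 it was 0.85 (adjusted p = 0.0573). It did not pass with limma in wildtype livers either (adjusted p = 0.148 and 0.132 at pseudocounts of 0.1 and 1). In Stab1-/- livers Hspa1b entered the test through its 2-week libraries alone, since all E17.5 libraries lay below the 10 reads of the filter on low counts. It was not tested there without 2-week replicate 2, 3 or 4, and with no filter its difference was 2.21 ± 0.51 (adjusted p = 0.00237). Between the genotypes Hspa1b alone differed by 0.47 ± 0.39 at 2 weeks (adjusted p = 0.493, edgeR) and was not tested at E17.5. In the interaction it was at -1.18 ± 0.64 (adjusted p = 0.274, edgeR). Between the genotypes the sum differed by 0.50 ± 0.38 at 2 weeks and -0.19 ± 0.42 at E17.5, neither called, and the exact permutation p was 0.286 and 0.571.

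A single wildtype 2-week library, replicate 3, was low in ER chaperones. Its Hspa5 was 148 RPKM, 0.43 of the mean of the other wildtype 2-week libraries (328 to 376 RPKM) and below the lowest Stab1-/- library of that age (279 RPKM). Among 7121 genes with a mean of at least 5 RPKM at 2 weeks, it ranked 19 from the lowest by this ratio. Hsph1 was 5.52 RPKM against 10.6 to 12.0, Hsp90aa1 45.2 RPKM against 70.1 to 73.0 and Hsp90b1 233 RPKM against 292 to 329. Hspa8 (582 RPKM, the others 609 to 740) and Dnajb1 (9.52 RPKM, the others 9.81 to 13.2) were lowest there by less, and Hspd1 and Hsp90ab1 were not lowest. In all it had the lowest level of its group for 6 of the 8 members at 1 RPKM or more, where it had the lowest for 26.5% of all genes.

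The other ER chaperones were low in the same library. It had the lowest of the 4 wildtype levels for 17 of 20 genes, with a median of -0.49 on the log2 scale against the mean of the others. The largest drops were in Hyou1, the exchange factor of BiP (9.77 RPKM, the others 21.3 to 27.6), Creld2 (0.409 of the mean of the others, at 22.8 to 26.9 RPKM), Sdf2l1 (8.59 RPKM, 18.5 to 20.6), Manf (16.6 RPKM, 32.5 to 46.8) and Hspa13 (5.12 RPKM, 7.66 to 13.6). Dnajb9 (17.2 RPKM), Dnajc10 (16.8 RPKM) and Sil1 (40.1 RPKM) were not lowest there. It was also lowest for 15 of 29 other cytosolic heat shock genes, 9 of 17 genes of ER stress signalling, 4 of 11 other mitochondrial chaperones and 4 of 8 subunits of the cytosolic chaperonin TRiC. Of the stress sensors' targets, Xbp1 was 74.8 RPKM there and 83.8 to 129 RPKM in the others, whereas Ddit3, which encodes CHOP, was 10.9 RPKM and 5.65 to 11.7 RPKM in the others. The ER genes named in this and the preceding paragraph were set apart after their values had been seen. Smaller shifts of the 20 other ER chaperones occurred elsewhere, as in wildtype E17.5 replicate 4, lowest of its group for 16 (median -0.15). Stab1-/- 2-week replicate 2 was highest of its group for 12 (median 0.22).

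Other genes moved with this library. Igfbp1, an insulin-repressed binding protein, was 586 RPKM there and 84.9 to 191 RPKM in the other wildtype libraries. The metallothionein Mt2 was 177 RPKM against 9.97 to 13.8 RPKM. In 2-week Stab1-/- livers Igfbp1 was 90.9 to 195 RPKM and Mt2 was 34.9 to 257 RPKM, so Mt2 stood apart within the wildtype group only. Of the markers, it had the lowest wildtype level for 0 of 10 hepatocyte, 0 of 7 sinusoidal endothelial, 0 of 7 Kupffer cell and macrophage, 2 of 8 granulocyte and 5 of 7 stellate genes. It had the highest for 5 of 7 Kupffer cell and macrophage genes (median 0.32 on the log2 scale against the mean of the others) and for 4 of 6 clock output genes (0.38), and its granulocyte genes had a median of -0.89. The last 2 shifts were not particular to it. Granulocyte genes had a median of -0.79 in wildtype 2-week replicate 4, and clock output genes 0.46 in Stab1-/- 2-week replicate 3, each against its own group. Igfbp1 and Mt2 were also chosen after their values had been seen, and their part in the chaperone levels was not tested. Without this library, the genotype difference at 2 weeks was -0.21 ± 0.13 (SE, log2) for Hspa5, -0.14 ± 0.13 for Hsph1, -0.078 ± 0.12 for Hsp90b1 and 0.082 ± 0.13 for Hsp90aa1. The adjusted p was between 0.387 and 0.765 for these (edgeR), so none passed with or without it. The difference between the ages in wildtype livers became 0.013 ± 0.11 for Hspa5, 0.077 ± 0.11 for Hsp90b1 and -1.19 ± 0.11 for Hsp90aa1, of which Hsp90aa1 alone was called.

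**Figure D3:**
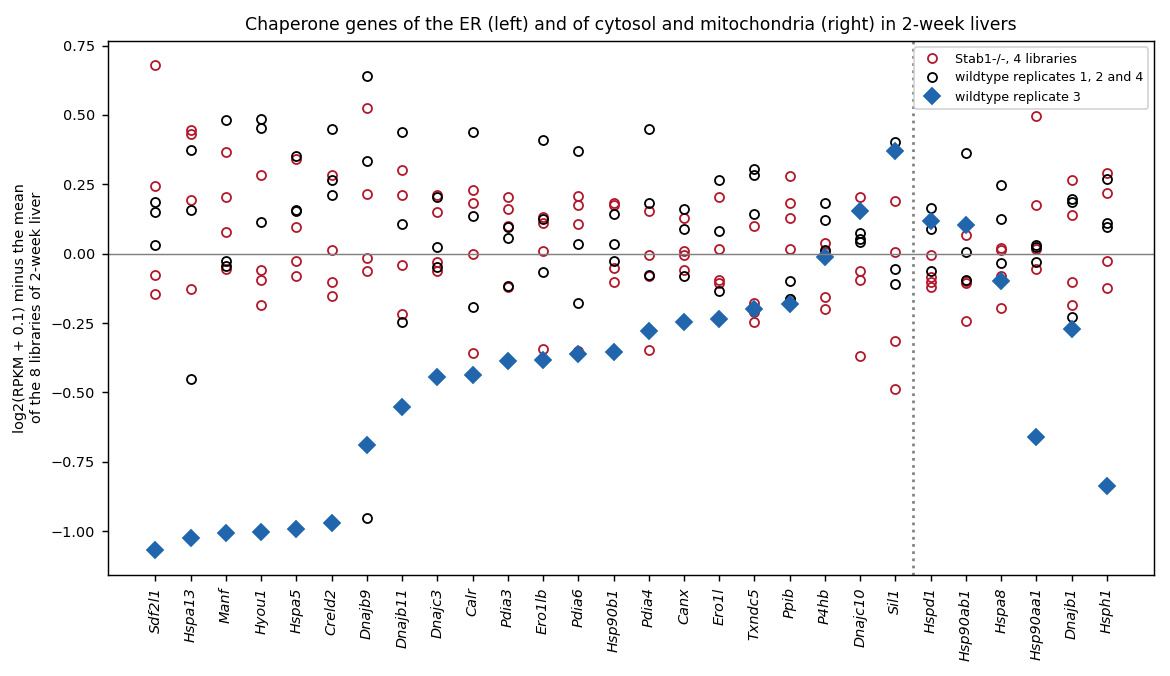
Log2(RPKM + 0.1) minus the mean of the 8 libraries of 2-week liver, for the 2 ER members with 20 other ER chaperones (left of the dotted line) and the other 6 members at 1 RPKM or more (right); each symbol is 1 library. Wildtype replicate 3 (filled diamonds) is the lowest wildtype library for 19 of the 22 ER genes and lies at -0.99 for Hspa5, while it is above 0 for Hspd1 and Hsp90ab1.

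Both ER members carry a motif in their promoters that is rare among mouse promoters. The ER stress response element, searched on both strands as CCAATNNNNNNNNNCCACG, occurred in 0.119% of 32851 mouse promoters of 300 bases (250 before the start site to 50 after it). Hspa5 held it once and Hsp90b1 at 2 places, 1 on each strand, and none of the other 5 members with a promoter in the table held it. It was also in 5 of the 14 other ER chaperone genes with a promoter in the table (Calr, Canx, Creld2, Dnajc3 and Pdia6). The sequences are shown from 250 bases before the start site up to it, with the element in capitals and, for Hspd1, the heat shock elements, and they come from RefSeq on GRCm38.p6. Hspa5 lies at chr2:34771840-34772089 (plus strand), Hsp90b1 at chr10:86705445-86705694 (minus strand) and the Hspd1 promoter with heat shock elements at chr1:55087933-55088182 (minus strand).
Hspa5: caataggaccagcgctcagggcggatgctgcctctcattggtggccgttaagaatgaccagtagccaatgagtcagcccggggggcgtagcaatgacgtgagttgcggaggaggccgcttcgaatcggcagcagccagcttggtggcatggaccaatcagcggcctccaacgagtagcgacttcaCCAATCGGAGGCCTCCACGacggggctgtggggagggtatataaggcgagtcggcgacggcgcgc
Hsp90b1: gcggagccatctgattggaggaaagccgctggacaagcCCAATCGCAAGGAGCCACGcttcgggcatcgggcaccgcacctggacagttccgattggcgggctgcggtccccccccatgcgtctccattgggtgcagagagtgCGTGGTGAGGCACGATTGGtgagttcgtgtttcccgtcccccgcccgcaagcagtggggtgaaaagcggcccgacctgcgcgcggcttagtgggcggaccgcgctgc
Hspd1: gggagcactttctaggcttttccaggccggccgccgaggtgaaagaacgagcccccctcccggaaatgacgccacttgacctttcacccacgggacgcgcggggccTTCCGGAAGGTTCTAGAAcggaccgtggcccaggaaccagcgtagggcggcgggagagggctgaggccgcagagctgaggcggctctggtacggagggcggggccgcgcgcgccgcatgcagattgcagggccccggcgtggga
The heat shock element, searched on both strands as GAANNTTCNNGAA, occurred in 0.603% of the promoters. Among the members it was in Hspd1, as 2 overlapping matches on opposite strands, and in both promoters of Hsph1, just after the start site. This exact pattern was not found in the promoters of Hspa1a, Hspa1b or Dnajb1 in this window. Looser forms of the element were not searched, so its absence there is not shown. Entries were found for 7 of the 10 members (10 promoters), and none for Hspa8, Hsp90aa1 and Hsp90ab1. A match of letters is not a bound site.

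The wider chaperone lists, drawn up by function with earlier results of these data known, are set beside all genes tested. Of these genes, 34.9% were called higher and 37.0% lower at 2 weeks in wildtype livers, and 35.7% and 36.8% in Stab1-/- livers. More mitochondrial chaperones were called higher than lower at 2 weeks, all TRiC calls were lower, and the balance of the cytosolic and ER lists turned with the scaling. Differences between the lists were not tested. Among 31 other cytosolic heat shock genes, 12 were called higher and 6 lower at 2 weeks in wildtype, and 14 and 8 in Stab1-/- livers. With library totals these were 5 and 15 and 7 and 13, so lower calls then led in both genotypes. The small heat shock protein Hspb8 rose by 2.11 ± 0.15 (SE, log2) in wildtype and 2.45 ± 0.16 in Stab1-/- livers, and Dnaja1, a J-domain partner of Hsp70, by 1.30 ± 0.15 and 1.63 ± 0.10. Dnaja4 was at -2.90 ± 0.12 and -2.11 ± 0.16, and the co-chaperone Bag2 at -3.19 ± 0.17 and -2.71 ± 0.13. All 8 of these values were called.

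All 8 TRiC subunits, which fold actin and tubulin, were called lower at 2 weeks in wildtype livers and 6 of them in Stab1-/- livers (8 and 7 with library totals). The median was -0.50 and -0.47 on the log2 scale. Tcp1 was at -0.77 ± 0.10 (SE) and -0.86 ± 0.091, Cct3 at -0.59 ± 0.11 and -0.75 ± 0.097, Cct7 at -0.46 ± 0.10 and -0.60 ± 0.085, and Cct5 at -0.53 ± 0.10 in wildtype and -0.037 ± 0.11 in Stab1-/- livers, the last not called. Hspd1 belongs to the other family of chaperonins. Of 11 other mitochondrial chaperones and proteases, 10 were called higher and 1 lower in wildtype, and 9 and 1 in Stab1-/- livers (5 and 1, and 8 and 2, with library totals), with medians of 0.77 and 0.80. Clpx, the unfoldase of a matrix protease, rose by 1.45 ± 0.098 and 1.57 ± 0.13, and Grpel1 and Grpel2, which exchange nucleotide on mitochondrial Hsp70, by 1.03 ± 0.095 and 1.17 ± 0.088 and by 1.36 ± 0.22 and 1.24 ± 0.11. The protease Htra2 went down, at -1.18 ± 0.13 and -1.32 ± 0.12.

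In the ER, 5 of 20 other chaperones were called higher and 1 lower at 2 weeks in wildtype livers, and 8 and 2 in Stab1-/- livers. With library totals it was 3 and 5, and 3 and 8. The ER oxidase Ero1l was at -1.64 ± 0.11 (SE, log2) and -1.70 ± 0.10, while its paralog Ero1lb rose by 1.33 ± 0.17 and 1.36 ± 0.17. Sil1, which exchanges nucleotide on BiP, rose by 0.97 ± 0.14 and 0.48 ± 0.17, and the BiP co-chaperone Dnajc3 by 0.44 ± 0.13 and 0.55 ± 0.12. Of 17 tested genes of ER stress signalling, 8 were called higher and 4 lower in both genotypes (4 and 6, and 7 and 5, with library totals). The 2 largest drops were in targets of Atf4: Asns, asparagine synthetase, at -3.78 ± 0.13 and -4.38 ± 0.23, and Ppp1r15a, which brings a phosphatase to eIF2 alpha, at -4.23 ± 0.20 and -4.19 ± 0.14. Chac1, another Atf4 target, rose by 4.23 ± 0.49 and 2.92 ± 0.40 from 0.266 RPKM in wildtype E17.5 livers, and the degradation factor Edem1 by 0.96 ± 0.12 and 1.14 ± 0.10.

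**Figure D4:**
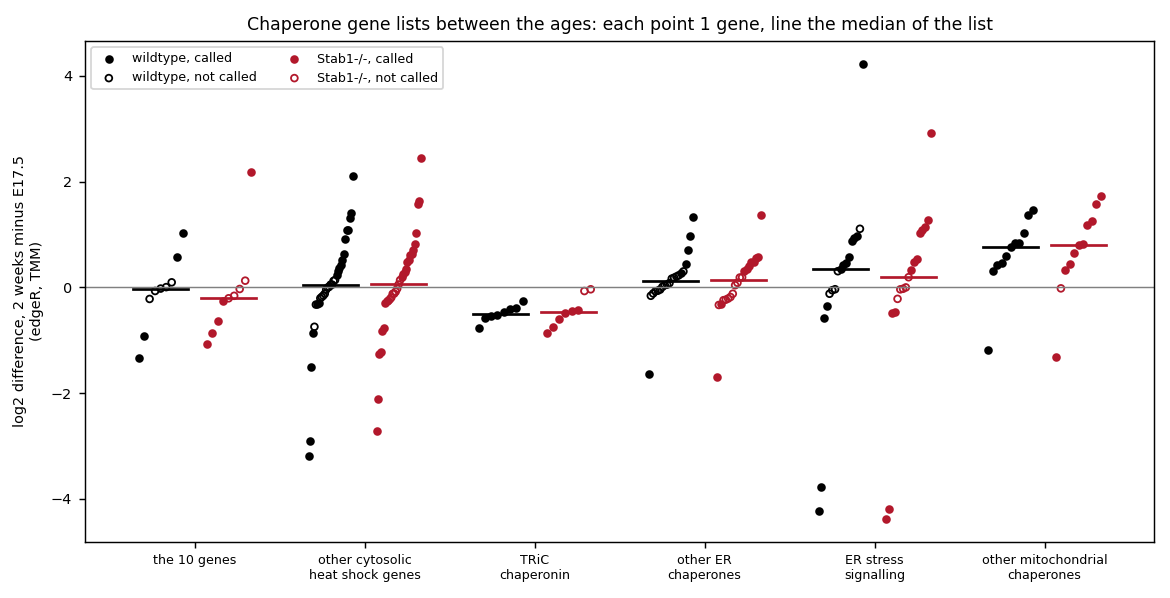
Log2 difference between the ages (2 weeks minus E17.5, edgeR with TMM) of each tested gene of the 10 and of 5 chaperone lists, in wildtype (black) and Stab1-/- livers (red); filled points have an adjusted p under 0.05 and lines are medians. The 8 TRiC subunits lie below 0 in both genotypes, and 10 of 11 mitochondrial chaperones are called above 0 in wildtype livers.

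Between the genotypes, 0 genes in any list passed at E17.5, where 0.35% of all genes tested did. The list genes called at 2 weeks stand beside 2.67% of all genes tested, and their number is not read as a trait of the lists. At 2 weeks Hspb8 was called higher in Stab1-/- livers (0.53 ± 0.12, SE, log2; 54.7 ± 8.34 RPKM against 35.4 ± 4.37 RPKM, SD, n = 4 each) with an adjusted p of 0.0455 (edgeR). Serpinh1, a collagen chaperone of the ER counted here with the heat shock genes, was called lower (-0.60 ± 0.14, adjusted p = 0.0455), as was Sel1l, the adaptor of ER degradation (-0.55 ± 0.13, adjusted p = 0.0455). No other cytosolic, ER, mitochondrial or TRiC list gene was called at 2 weeks, and with library totals Hspb8 remained called (adjusted p = 0.0347) while Serpinh1 and Sel1l did not pass (adjusted p = 0.0626 and 0.0655). In lists of genes that respond to handling of the animals or tissue, the immediate early gene Zfp36 was called lower at 2 weeks (-0.71 ± 0.15, adjusted p = 0.0310), 1 of 11 tested, and 0 of 7 clock output genes and neither of the cold-responsive genes Cirbp and Rbm3 were. With library totals Zfp36 did not pass either (-0.62, adjusted p = 0.0566, edgeR). The genotype difference itself changed between the ages for Dnaja4 (-0.81 ± 0.19, adjusted p = 0.0452), Sel1l (0.66 ± 0.15, adjusted p = 0.0451) and Zfp36 (1.05 ± 0.20, adjusted p = 0.0223), where 1.82% of all genes tested were called. Between the ages 6 of 11 immediate early genes were called higher and 3 lower in wildtype livers and 3 and 3 in Stab1-/- livers (4 and 4, and 2 and 5, with library totals), and 3 of 7 clock output genes were called higher and 1 lower in each genotype (3 and 1, and 3 and 3, with library totals), beside the shares over all genes given above. The clock gene Dbp rose by 3.82 ± 0.28 and 3.49 ± 0.38, Tef by 2.17 ± 0.16 and 2.14 ± 0.15 and Nr1d1 by 2.42 ± 0.21 and 1.77 ± 0.18, and the part of collection time in the chaperone values was not tested.

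The genes whose levels went most like those of 3 members across the 15 libraries were sought among 10973 genes, by the root mean square difference of their centred log2(CPM + 1) profiles. For Hspa5 they were Hyou1 (0.151), Sec23b, a coat protein of vesicles leaving the ER (0.161), and Edem3, an ER degradation factor (0.171). For Hspd1 they were Tars (0.0727), Tmed4 (0.0767) and Capzb (0.0825). For Hspa1b, at its few reads, they were Ppapdc2 (0.219), Tmem106c (0.229) and Mir703 (0.236). All profiles share the libraries and their depth, and these values describe likeness only.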

How the data were processed

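Liver RNA of 15 mice and fetuses was sequenced, and the samples were grouped by the genotype and age in their labels. The authors deposited read counts per gene, RPKM and the percent coverage of each gene model in 1 table; RPKM recomputed from the counts and gene lengths matched theirs. Aligner, genome build and strand setting are not given in the sources used here.

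Counts were tested with edgeR 4.0.16 (quasi-likelihood, TMM, low counts removed by filterByExpr, set to 10 counts and 15 in total) in R 4.3.3, separately for 5 comparisons, with two-sided Benjamini-Hochberg adjusted p under 0.05 over all genes tested. The SE is the log2 difference divided by the square root of its F statistic. The code was tested on simulated data. Alternatives were DESeq2 1.42.0, limma 3.58.1 on log2(RPKM + 0.1) and log2(RPKM + 1), no filter, other scalings, all 15 libraries in 1 fit, a replicate block, GC offsets, merged or repeated rows, and each library left out. List genes were named by the smallest adjusted p among those called in a comparison, at most 3 a list, with the value of the other genotype beside it. The members and lists were chosen with earlier results of these data known. Promoters came from RefSeq (GRCm38.p6), and shared 50-base windows from GENCODE vM21 transcripts. Each library had 9659 to 10964 times 1000 reads on genes, and intervals for counts of 0 cover counting error only.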

Additional observations from a re-analysis of the deposited data

Results flagged for a closer look

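Wildtype 2-week replicate 3 stood apart from the rest of its group in Hsp90aa1, at 45.2 RPKM where the nearest of the others was at 70.1 RPKM. It also stood apart in the share of reads on the 10 chaperone genes together, at 0.361% where the nearest was at 0.453%. Wildtype E17.5 replicate 4 had the highest Dnajb1 of its group, 32.3 RPKM where the next was at 26.5 RPKM. In the sum of 5 pancreas markers, wildtype E17.5 replicate 2 was at 2025 RPKM and the next library of the group at 199 RPKM. These are 4 of 69 sets of 4 libraries examined by Dixon's criterion, where 3.45 are expected by chance. The ER members Hspa5 and Hsp90b1 were also lowest in wildtype 2-week replicate 3, but did not meet this criterion.

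The genotype difference at E17.5 minus that at 2 weeks passed edgeR's test for 3 list genes and for Stab1 itself, where 1.82% of all genes tested passed. It was -0.81 on the log2 scale for Dnaja4, 0.66 for Sel1l, 1.05 for Zfp36 and 1.24 for Stab1 (adjusted p = 0.0310, 0.0559 without wildtype 2-week replicate 3 and 0.0773 without wildtype E17.5 replicate 2). For Sel1l it did not pass with library totals (0.54, adjusted p = 0.0602).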

How the results depend on the processing

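Of 910 member values under another setting, 798 kept their direction and their side of the threshold, 78 changed sign, 19 newly passed and 15 no longer passed. No member was called between genotypes or in the interaction under any setting but DESeq2, which called 1 member (Hspa8) at E17.5 and 1 in the interaction. In Stab1-/- livers 5 members were called between the ages, 8 with limma at either pseudocount, and 3 to 5 with 1 library left out.

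Genes called at 2 weeks numbered 340, against 855 with DESeq2, 195 and 199 with limma (pseudocount 0.1 and 1), 703 with all libraries in 1 fit and 116 to 633 with 1 library left out (lowest without Stab1-/- replicate 1, highest without wildtype replicate 2). At E17.5 they numbered 47, against 228 with DESeq2 and 27 to 46 with 1 library left out. In the interaction they numbered 252, against 1071 with DESeq2 and 30 to 684 with 1 library left out. The split of interaction calls was 192 upwards and 113 downwards with median-of-ratios scaling.

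Whether the replicate numbers pair the libraries of the 2 genotypes was not tested. The correlation of same-numbered deviations was 0.0233 to 0.204 at 2 weeks, where that of differently numbered ones was -0.258 to 0.283. At E17.5 the same-numbered ones were at -0.175 to 0.0095 and the differently numbered ones at -0.103 to 0.263. With the number as a replicate block, 1181 genes were called at 2 weeks, 23 at E17.5 and 593 in the interaction, and with GC offsets added 716, 29 and 379. No member was called in these 3 comparisons under the block, and in Stab1-/- livers Hspd1 was no longer called between the ages (-0.27, adjusted p = 0.0744).

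Some values changed sign. At 2 weeks the genotype difference of Hsp90b1 became -0.16 with GC offsets and -0.15 with these and the block, and that of Dnajb1 became 0.059 and 0.054 with limma, 0.054 with library totals, 0.038 with GC offsets and 0.039 with the block added. At E17.5 Hsp90b1 became -0.040 with limma and with library totals and -0.0033 with the block. Hspa5 there became -0.061 with limma and library totals, -0.059 with the block and GC offsets, -0.050 with the block, -0.013 with all libraries in 1 fit and -0.011 with GC offsets. Between the ages in wildtype livers, Hsp90b1 became 0.19 with GC offsets and 0.17 with the block added, Hspd1 became -0.27 with limma and with library totals, and Hsph1 became -0.40 and -0.36 with limma, -0.35 with library totals, -0.0072 with all libraries in 1 fit and -0.027 with the block. In Stab1-/- livers Hspa8 became -0.10 with limma and -0.098 with library totals. In the interaction Hsp90b1 became 0.024 with DESeq2 and median-of-ratios scaling, 0.28 with GC offsets and 0.25 with the block added, Hspa5 became 0.0032 with DESeq2 and median-of-ratios scaling, and Hsph1 became -0.018 and -0.0092 with limma. Apart from the scalings, the cause was not tested.

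With 1 library left out, signs changed within these ranges. For genotype at 2 weeks they were -0.078 to 0.091 for Hsp90b1, -0.21 to 0.13 for Hspa5, -0.14 to 0.15 for Hsph1 and -0.097 to 0.048 for Dnajb1. At E17.5 they were -0.041 to 0.055 for Hsp90b1, -0.078 to 0.052 for Hspa5, -0.087 to 0.025 for Hsp90aa1 and -0.17 to 0.013 for Dnajb1. Between the ages in wildtype livers they were -0.096 to 0.077 for Hsp90b1, -0.33 to 0.013 for Hspa5, -0.17 to 0.033 for Hsp90ab1 and -0.083 to 0.21 for Hsph1, and in Stab1-/- livers -0.079 to 0.046 for Hsp90b1. In the interaction they were -0.094 to 0.069 for Hsp90b1, -0.17 to 0.18 for Hspa5 and -0.19 to 0.031 for Dnajb1. Hspa1a and Hspa1b alone among the members were thinly covered, as the others were covered over at least 88.3% of their gene models. The parts of depth and of reads lost between the copies in this were not tested.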
